A study of Sus scrofa with 14 samples.

Results

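The swine MHC class II genes were followed through 14 arrays of pig jejunum. They comprise CD74 and the genes whose symbol starts with SLA-D, the swine leukocyte antigen genes of class II. Probes were included when the RefSeq accession in the scanner files belonged to such a gene, which gave 32 probes, or when the supplementary gene list of the study named the probe so, which gave 1 more. That list holds genes the study selected for a change above 1.5-fold by onion. The 1 probe, of SLA-DOB, thus came in through its onion response. The 33 probes, of 43603 on the array, stood for 9 genes of the 3020 that could be named. SLA-DRA and SLA-DQA1 had 7 probes each, SLA-DRB1 and SLA-DQB1 had 4 each, SLA-DOB had 3, and SLA-DMA, SLA-DMB, SLA-DOA and CD74 had 2 each. The reference holds 13 symbols that fit the rule, and the other 4, SLA-DRB4, SLA-DRB5, SLA-DQB2 and SLA-DYB, are pseudogenes without a probe matched here.

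The pigs were male, 5 weeks old and weighed 8.2 kg, and their strain was not given in the labels. Segments of the jejunum were perfused for 6 h in the anaesthetised animal by the small intestinal segment perfusion (SISP) technique. Pigs 1, 2 and 4 each gave a segment perfused with saline digest (Sd), the control taken through the same in vitro digestion without onion, and a segment perfused with yellow onion digest (YOd). Pigs 5, 6, 7 and 8 each gave an Sd segment and a segment perfused with white onion digest (WOd). The onion digests were diluted in peptone and the Sd, to a different extent, in a salt solution with amino acids and glucose, so the fluids of a pair differed in more than onion. RNA came from mucosal scrapings, in which epithelium is mixed with cells of the underlying mucosa. In such a mixture, fewer cells of a type and less RNA per cell cannot be told apart.

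MHC class II molecules sit on the surface of antigen-presenting cells and show peptides of ingested proteins to CD4+ T cells. Each is a pair of an alpha and a beta chain, here SLA-DRA with SLA-DRB1 and SLA-DQA1 with SLA-DQB1. CD74, the invariant chain, fills the groove of a newly made pair and guides it to the endosome. There SLA-DM, the product of SLA-DMA and SLA-DMB, exchanges the last piece of CD74 for a peptide, and SLA-DO, the product of SLA-DOA and SLA-DOB, restrains SLA-DM. In most species the genes share promoter elements and a common coactivator, CIITA, so that they are switched on together. In the intestine the molecules are found on dendritic cells, macrophages and B cells, and epithelial cells can carry them too. The beta chains in particular differ between individuals. On the Sscrofa11.1 reference, used for names and neighbours, the 8 SLA-D genes measured follow each other on 1 chromosome in the order SLA-DRA, SLA-DRB1, SLA-DQA1, SLA-DQB1, SLA-DOB, SLA-DMB, SLA-DMA and SLA-DOA, and CD74 lies on another chromosome.

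Depending on the array, 50.6% to 70.7% of probes were well above background, and 31 of the 33 class II probes were so on all 14 arrays. The lowest share belonged to the Sd array of pig 8, which also had the most spots marked as outliers, 462, against a median of 53.5 over the arrays. The enterocyte markers on the array, 8 of 12, had summed levels between 639 and 1234 times the 75th percentile of the array, with 7 of the 8 saturated on at least 1 array, so the segments carried the markers of the labelled tissue. Of the 462 class II values, 1 was saturated and 2 were missing because the spot was marked as an outlier. Levels below are log2 signals relative to the 75th percentile of the array, which is 0. A level depends on the probe, so the levels of different genes are not compared.

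SLA-DRA and SLA-DRB1, the chains of the DR molecule, were far above background in every segment and differed widely between pigs. Over the 7 Sd segments SLA-DRA ranged from a log2 level of 4.60 in pig 7, over a median of 5.15, to 6.53 in pig 8, a 3.81-fold range. The second segment of each pig lay close to the first. In the order of their means the pigs were 8, 2, 5, 4, 1, 6 and 7, with 6.19 in the WOd segment of pig 8 and 6.02 in the YOd segment of pig 2 at the top, and 4.57 and 4.73 in the WOd segments of pigs 6 and 7 at the bottom. Only pigs 6 and 7 had overlapping values among neighbours in that order. SLA-DRB1, the polymorphic beta chain, had a median of 5.09 over Sd, with 4.06 in pig 7 as the lowest and 6.50 in pig 8 as the highest value. On the brightest probe of each gene, the 5.39-fold range of SLA-DRB1, 2.43 log2 units, was the widest measured among the DR, DQ and DM genes. Dimmer probes had wider ranges, up to 3.52 log2 units for SLA-DQB1, 2.83 for SLA-DMB, 2.78 for SLA-DRB1, 2.71 for SLA-DRA and 2.62 for SLA-DQA1. For SLA-DRB1 the 2 segments of pig 8, at 6.50 and 6.00, were above all segments of the other pigs. The segments of pigs 6 and 7, between 4.00 and 4.64, were below all others.

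SLA-DQA1 and SLA-DQB1, the chains of the DQ molecule, gave the same ends of the order. SLA-DQA1 spanned a 4.24-fold range over the Sd segments, between 4.22 (pig 7) and 6.31 (pig 8), with a median of 5.34. In the order 8, 2, 5, 4, 1, 6 and 7, no neighbouring pigs had overlapping SLA-DQA1 values, since the 2 segments of a pig differed by at most 0.41. SLA-DQB1 ranged from 4.50 in pig 7, over a median of 5.57, to 6.48 in pig 8. That highest value was the saturated spot, so the 3.93-fold range is a lower bound. Pigs 8 and 2 overlapped for SLA-DQB1, as did pigs 5, 4 and 1, while pigs 6 and 7 were below the rest.

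CD74, the invariant chain, spanned a 3.58-fold range over Sd, between 1.29 (pig 7) and 3.13 (pig 8), around a median of 2.34. Its level in pig 8 was 3.13 in the Sd and 3.16 in the WOd segment, and in pig 2 it was 3.06 in the Sd and 3.04 in the YOd segment. Pig 6 was the exception, with 2.15 in its Sd segment and 1.42 in its WOd segment, and overlapped with pigs 1 and 7. SLA-DMA and SLA-DMB, the chains of the peptide exchanger, were also lowest in pig 7 and highest in pig 8. SLA-DMA ranged from 3.71 to 4.98 over Sd with a median of 3.89. At 2.41-fold this was the narrowest range of the 9 genes on the brightest probe of each. SLA-DMB ranged from 2.87 to 4.75 with a median of 3.35, a 3.67-fold range. For both DM genes pigs 8, 5 and 2 were the highest 3 of the 7.

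SLA-DOA and SLA-DOB, the chains of the DM inhibitor, behaved unlike each other. SLA-DOA ranged from -1.997 in pig 7, over a median of -0.62, to 1.02 in pig 8. At 8.07-fold this was the widest range of the 9 genes on the probe that stands for each. SLA-DOB, on the probe named by the study's list, ranged from -2.66 in pig 1 over a median of -1.61 to -0.63 in pig 6. Pigs 8, 7 and 4, at -1.61, -1.54 and -1.64, had nearly the same SLA-DOB level in their Sd segments, while they differed by up to 8.07-fold in SLA-DOA. The SLA-DOB probes were dim and disagreed. A second probe had its highest Sd level, -2.02, in pig 8 and not in pig 6, and the third lay between the floor of -4.43 and -3.46, also highest in pig 8, with no value in pig 7.

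**Figure D1:**
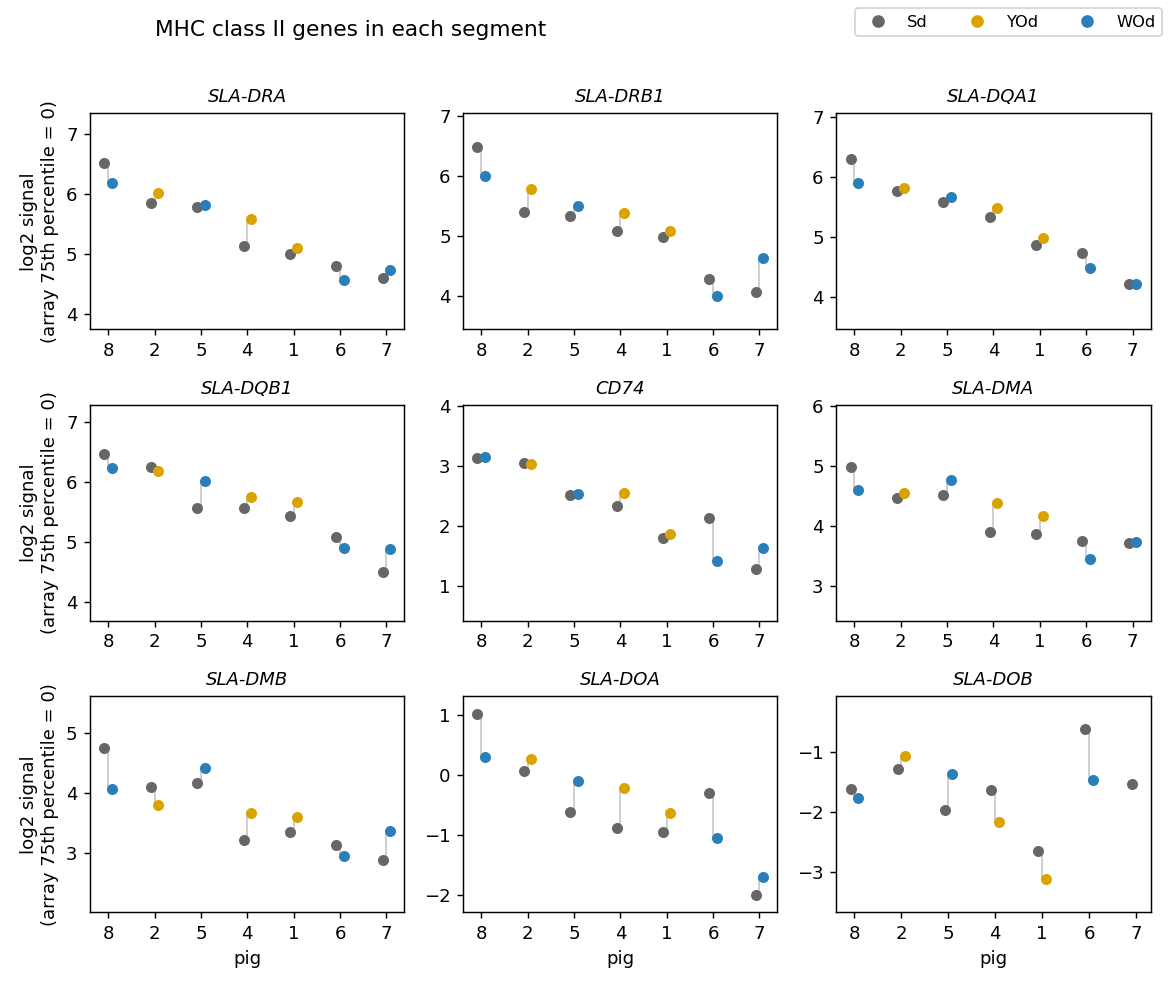
Log2 signal of the 9 MHC class II genes (y axis, array 75th percentile at 0, every panel spanning the same number of units) in the Sd (grey), YOd (yellow) and WOd (blue) segment of each pig (x axis, pigs in the order of SLA-DRA), with a line joining the segments of a pig. In 8 genes pig 8 has the highest and pig 7 the lowest Sd value, from 1.02 to -1.997 for SLA-DOA, while SLA-DOB is highest in pig 6 at -0.63 and has no value for the WOd segment of pig 7.

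The design asks whether pigs differed by more than the 2 segments of a pig did. All 9 genes passed the limma F test of the pig terms, with adjusted p-values from 0.0018 for SLA-DQA1 to 0.042 for SLA-DOB. The share of all genes that passed was 37.9%, or 929 of 2453, and 30 of the 33 class II probes passed against 27.7% of all probes. The 3 probes that did not pass were those of SLA-DOB. F was 25.3 for SLA-DQA1, 22.3 for SLA-DRA, 15.6 for SLA-DRB1, 13.6 for SLA-DQB1 and 13.4 for CD74. It was 11.9 for SLA-DOA, 9.63 for SLA-DMA, 6.94 for SLA-DMB and 5.65 for SLA-DOB. SLA-DOB no longer passed under several other settings, for instance with every probe tested (adjusted p = 0.051), and SLA-DMB no longer passed without pig 6 (adjusted p = 0.052). The other 7 genes passed whichever pig was left out.

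The SD over the 7 Sd segments had a median of 0.68 log2 units over the 9 genes, against 0.39 over 2246 genes above the floor in every Sd segment. The class II genes lay between the 68.2nd percentile of these genes (SLA-DMA, SD 0.49) and the 94.5th (SLA-DOA, SD 0.94), with a median at the 86.0th. SLA-DRB1 was at 0.80. The SD over pigs was also set against the SD of the onion over Sd ratio of the same pigs. This quotient had a median of 1.92 for the class II genes and 1.18 for all genes, and it was 3.34 for SLA-DQA1, 2.64 for SLA-DRA and 2.43 for SLA-DQB1. SLA-DOB had the lowest, 1.17. These are descriptions of 7 animals, and genes are not independent replicates.

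**Figure D2:**
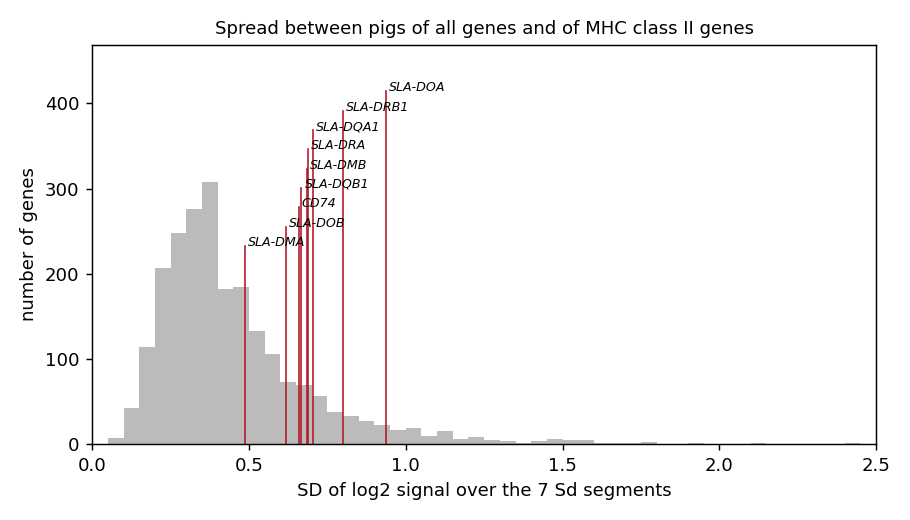
Distribution of the SD of the log2 signal over the 7 Sd segments (x axis) for 2246 genes above the floor in all of them (grey, y axis number of genes), with the 9 MHC class II genes as red lines whose height only separates the names. The class II genes lie between 0.49 and 0.94, to the right of the median of all genes at 0.39, and 2 genes above 2.5 are not drawn.

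Apart from SLA-DOB, the class II genes varied together from pig to pig. Over the 7 Sd segments the 28 pairs among the other 8 genes had Pearson's r from 0.80 (SLA-DMA with SLA-DOA) to 0.99 (SLA-DMA with SLA-DMB), with a median of 0.92. The 8 pairs with SLA-DOB had r from -0.25 to 0.23. The points share the array and its scaling, so the values are a description. The mean of the 8 genes, each centred on its mean over the arrays, was 1.07 in the Sd segment of pig 8, followed by pig 2 at 0.48, pig 5 at 0.22 and pig 4 at -0.18. Pig 1 was at -0.35, pig 6 at -0.44 and pig 7 at -0.98, and the ends were 4.14-fold apart.

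Each pig had its own scrapings, and 5 of the 7 had both arrays on 1 slide, so part of a difference between pigs could not be separated from the slide. All 4 arrays of pigs 6 and 8 lay on the same slide. On it, pig 8 was above pig 6 in 8 genes in both segments, by 1.98-fold for CD74 to 4.64-fold for SLA-DRB1 over the Sd segments and by 2.17-fold for SLA-DMB to 4.00-fold for SLA-DRB1 over the WOd segments. SLA-DOB was the exception, at 0.505-fold in Sd and 0.814-fold in WOd. With the slide as a block over all 14 arrays, the 8 genes that could be tested, all but SLA-DOB, passed, against 20.2% of all genes. In that fit pigs 2 and 7 link slides, pig 1, alone on its slide, is not compared, and 3 residual degrees of freedom remain. The high levels of pig 8 were not limited to its Sd array with the many outlier spots. The Sd arrays of pigs 2 and 7 lay on a slide of their own that was scanned in another session. The WOd array of pig 7, on a slide with both arrays of pig 5, was the lowest onion array in 3 of the 9 genes, and that of pig 6 in 5. Among the 7 onion arrays pig 8 was highest in 6 of the 9 genes, pig 5 in SLA-DMA and SLA-DMB, and pig 2 in SLA-DOB.

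A probe that meets a different allele can read low in 1 animal while other probes of the gene do not. Probes of a gene were therefore compared with each other. The log2 value of each probe minus the mean of the other probes of its gene was tested between pigs with the limma F test. Of the 30 class II probes that could be tested, 2 passed, against 10.8% of the 3727 probes of 1091 genes. The SLA-DQB1 probe A_72_P585101 (adjusted p = 0.049) was lower in pig 8 than its sister probes, relative to its mean over the arrays. The difference was -0.61 in Sd and -0.77 in WOd, and between -0.21 and 0.47 in the segments of the other pigs. One of these sisters, the dim A_72_P631166, stood 0.81 and 1.44 above its own sisters in pig 8. Its high reading enters the mean that A_72_P585101 was set against, so the 2 readings are not independent. The SLA-DQA1 probe A_72_P763148 (adjusted p = 0.038) read low in pig 7, at -0.52 and -0.46, and in pig 8, at -0.40 and -0.26, and reached 0.43 in the Sd segment of pig 2. Pigs 7 and 8 are the ends of the SLA-DQA1 order, so the low reading of this probe did not go with the level of the gene. The 4 SLA-DRB1 probes differed from each other by little, with a spread over pigs of at most 0.25. The widest, 1.64, belonged to the dim SLA-DQB1 probe A_72_P631166, which did not pass (adjusted p = 0.13). Whether an allele lies behind a reading was not tested, since no probe sequence or genotype was used.

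The probes of a gene nevertheless gave a common picture of the pigs. Of the 33 probes, 30 had their highest Sd value in pig 8 and 29 their lowest in pig 7. The SD over Sd lay between 0.69 and 0.99 for the 7 SLA-DRA probes, between 0.70 and 0.94 for the 7 SLA-DQA1 probes and between 0.80 and 0.93 for the 4 SLA-DRB1 probes. It reached 1.10 for an SLA-DQB1 probe and 1.07 for an SLA-DMB probe, both dimmer than the probe that stands for the gene. The brightest probe of SLA-DRA, SLA-DRB1, SLA-DQA1, SLA-DQB1, SLA-DMA, SLA-DMB and CD74 had the narrowest SD of its gene.

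**Figure D3:**
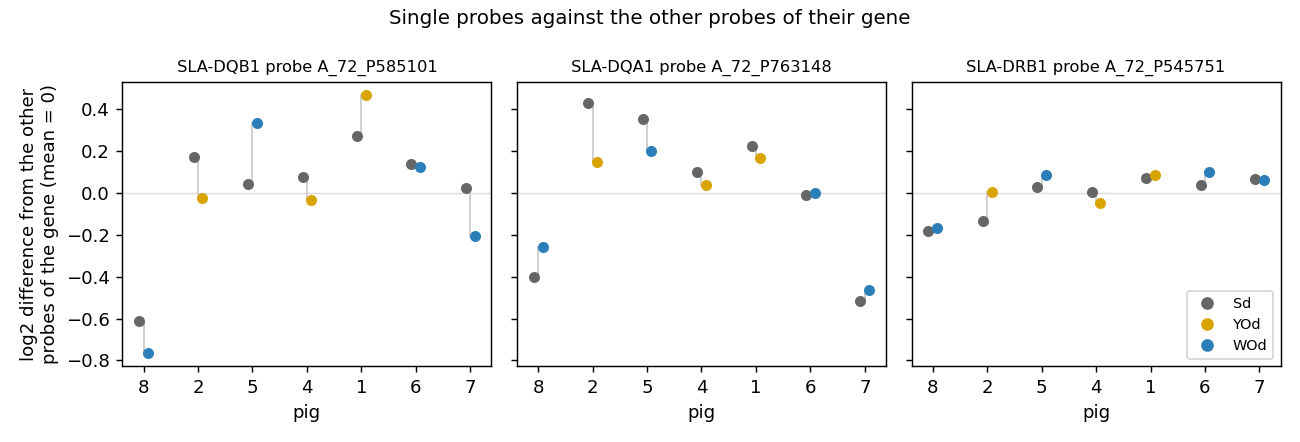
Log2 difference between a probe and the mean of the other probes of its gene, centred on the mean over arrays (y axis), in the Sd (grey), YOd (yellow) and WOd (blue) segment of each pig (x axis, in the order of SLA-DRA). The SLA-DQB1 probe is low in both segments of pig 8 (-0.61 and -0.77) and the SLA-DQA1 probe in pigs 7 and 8, while the SLA-DRB1 probe, shown for comparison, spreads over 0.25 between pigs.

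The study asked whether onion digest changes gene expression against Sd within a pig. No class II gene was called in any of the comparisons, by limma with the pig as a block, a raw p below 0.05 and a change above 1.5-fold. In YOd/Sd, 0 of 9 genes were called against 4.63% of all genes, and 0 of 33 probes against 4.92% of all probes. In WOd/Sd the counts were 0 of 9 against 1.18% and 0 of 33 against 1.3%. In onion/Sd over the 7 pigs they were 0 of 9 against 1.22% and 0 of 33 against 0.857%. No other test was run for these counts. Counted by a raw p below 0.05 alone, 1 gene and 2 probes passed in YOd/Sd and none in the other comparisons, and no gene of any kind passed after Benjamini-Hochberg adjustment.

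In the YOd pigs most class II genes were slightly higher than in Sd, as most genes were. The ratios of 8 of the 9 genes were above 0, with a median of 0.13 on the log2 scale against 0.14 for all genes. SLA-DOA, the alpha chain of the DM inhibitor, was at -0.96, 0.06 and -0.88 in the Sd segments of pigs 1, 2 and 4 and at -0.63, 0.26 and -0.21 in their YOd segments. It was higher in 3 of 3 pigs, and the groups overlapped. The mean log2 ratio was 0.40 ± 0.16 (SE, limma, adjusted p = 0.387), under 1.5-fold. Its second probe gave 0.37 ± 0.15 (SE, limma, adjusted p = 0.417). SLA-DMA had a log2 ratio of 0.29 ± 0.15 (SE), SLA-DRB1 0.25 ± 0.15 and SLA-DRA 0.24 ± 0.15. On the probe that stands for the gene, each was above 0 in 3 of 3 pigs. All 4 SLA-DRB1 probes were above 0 in these pigs, with mean ratios from 0.17 to 0.31. The second SLA-DMA probe gave 0.14 and was at -0.24 in pig 2. The other SLA-DRA probes gave lower values, from -0.0094 to 0.19, and 3 of 7 were above 0 in pig 1. SLA-DMB, SLA-DQB1, SLA-DQA1 and CD74 lay between 0.09 and 0.13, and SLA-DOB was at -0.26 ± 0.19. On the probe that stands for the gene, the 95% interval was within 1.5-fold either way for SLA-DQA1, SLA-DQB1, SLA-DMB and CD74. A larger change was not excluded for the other 5. Nor was it excluded on other probes of SLA-DMB and SLA-DQA1, with upper bounds of up to 0.81 and 0.64, against 0.585 for 1.5-fold.

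In the WOd pigs the mean ratios covered opposite signs. SLA-DQB1 alone was above 0, at 0.10 ± 0.18 (SE), and the other 8 genes lay between -0.16 ± 0.26 (SLA-DOA) and -0.01 ± 0.21 (SLA-DRB1), with a median of -0.10 against 0.04 for all genes. Adjusted p-values were 0.998 for all 9 genes in limma. On the probe that stands for the gene, the 95% interval lay within 1.5-fold for 7 genes and not for SLA-DOA and SLA-DOB. On other probes of SLA-DRA, SLA-DRB1, SLA-DQA1, SLA-DMB and CD74 it passed 1.5-fold, with bounds down to -0.66 (SLA-DQA1) and up to 0.66 (SLA-DMB). The value of SLA-DOB rests on pigs 5, 6 and 8, since the WOd spot of pig 7 was left out. The log2 ratio of SLA-DRB1, for example, was 0.17 in pig 5 and 0.57 in pig 7 but -0.28 in pig 6 and -0.49 in pig 8.

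Read by pig, the ratios of the class II genes mostly had 1 sign in the WOd pigs and were mixed in pig 2. In pig 5 all 9 genes were above 0 and in pig 7 all 8 measured. In pig 6 all 9 and in pig 8 all but CD74, 8 of 9, were below 0. The YOd pigs had 8, 6 and 8 of 9 genes above 0 in pigs 1, 2 and 4. The mean ratio of the 8 genes without SLA-DOB was 0.19 in pig 1, with pig 2 at 0.06, pig 4 at 0.36, pig 5 at 0.22 and pig 7 at 0.28. Pig 6 was at -0.36 and pig 8 at -0.41. Beside these, the median of all genes was 0.19 in pig 1, 0.03 in pig 2, 0.20 in pig 4, 0.05 in pig 5, 0.11 in pigs 6 and 7 and -0.09 in pig 8. The class II mean of pig 1 was thus that of the median gene, and in pig 6 it had the opposite sign. In pig 6 none of the 33 probes was above 0, and in pig 8 it was 3 of 33. Above 0 were 30 of 33 in pig 4, 26 of 33 in pig 5 and 27 of 31 in pig 7, but 21 of 33 in pig 1 and 18 of 33 in pig 2. The ratios of pig 8 rest on its Sd array with 462 outlier spots, and those of pig 7 on a WOd array with 282 outlier spots and 55.2% of probes well above background. In pigs 2 and 7 the Sd array also lay on another slide than the onion array and was scanned in another session. In their ratios slide, session and onion cannot be told apart. The part of array quality in the ratios of pigs 7 and 8 was not tested. The genes moved together in Sd as well, so these counts are not 9 independent observations.

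**Figure D4:**
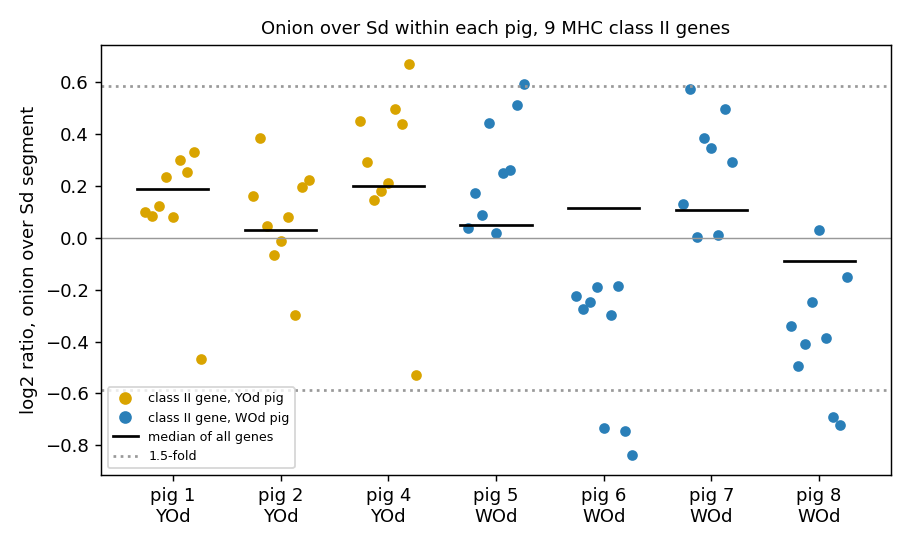
Log2 ratio of the onion over the Sd segment (y axis) of the 9 MHC class II genes in each pig (x axis, YOd yellow, WOd blue, genes from left to right SLA-DRA, SLA-DRB1, SLA-DQA1, SLA-DQB1, CD74, SLA-DMA, SLA-DMB, SLA-DOA, SLA-DOB). Black bars give the median of all genes and dotted lines 1.5-fold. All points of pig 6 and all but CD74 of pig 8 are below 0, while those of pigs 5 and 7 are above it.

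Single genes passed 1.5-fold in pigs 4, 5, 6 and 8 only. In pig 6, CD74 was at -0.73, SLA-DOA at -0.75 and SLA-DOB at -0.84. That was 3 of 9, against 7.15% of all genes down past 1.5-fold. In pig 8, SLA-DMB was at -0.69 and SLA-DOA at -0.72, or 2 of 9 against 6.1% of all genes. Upward, SLA-DOA reached 0.67 in pig 4, 1 of 9 against 18.4% of all genes. SLA-DOB reached 0.59 in pig 5, 1 of 9 against 9.03%. The SLA-DOB probe came from a list chosen by onion response, so its part in the counts of pigs 5 and 6 is not a separate observation. On the probe that stands for each gene, SLA-DRA, SLA-DRB1, SLA-DQA1, SLA-DQB1 and SLA-DMA stayed within 1.5-fold in every pig. Except for SLA-DMA, other probes of these genes passed it. They reached 0.83 for SLA-DRA and 0.65 for SLA-DRB1 in pig 7, 0.62 for SLA-DQA1 in pig 4 and -0.59 for SLA-DQB1 in pig 5. On the probes that stand for the genes, the range of SLA-DQA1 was the narrowest of the 9, from -0.41 in pig 8 to 0.15 in pig 4. Over its 7 probes it was -0.56 to 0.62.

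Over the 7 pigs together the mean log2 ratios lay between -0.19 ± 0.18 (SE, SLA-DOB) and 0.11 ± 0.11 (SLA-DQB1), with 6 of 9 above 0 and a median of 0.04 against 0.08 for all genes. SLA-DRA was at 0.04 ± 0.11 and CD74 at -0.01 ± 0.13. For 8 of the 9 genes the 95% interval lay within 1.5-fold either way. The exception was SLA-DOB, with a lower bound of -0.61.

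The difference of the onion effects, YOd effect minus WOd effect, was above 0 for 8 of 9 genes, with a median of 0.25 against 0.10 for all genes. None was called, by limma, against 3.64% of all genes, nor any of the 33 probes against 5.65%, and none had a raw p below 0.05. SLA-DOA had the highest difference, 0.56 ± 0.35 (SE, limma, adjusted p = 0.844). Without pig 5 it was called, at 0.79 ± 0.32 (limma, adjusted p = 0.753). The 95% interval lay within 1.5-fold for SLA-DQB1 only, on the probe that stands for it. Its other probes passed 1.5-fold, with bounds of up to 0.79. The onions were given to different pigs, so onion and pigs cannot be told apart beyond the spread between animals.

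Genes around the class II pathway were counted from lists. Of the activators CIITA, the RFX genes and other promoter-binding factors, only NFYB, a subunit of the factor that binds the Y element of class II promoters, could be named on the array, and it was not called in any onion comparison. Interferon gamma is the best known inducer of class II. IFNG had an Sd level of -0.06 in pig 8, with pig 2 at -0.97 and pig 5 at -1.16. Pigs 1, 4, 6 and 7 lay from -3.13 to -2.35, so the pigs with the highest class II levels also had the highest IFNG. Its r with the class II mean (all 9 genes, each centred) was 0.93 over the 7 Sd segments and 0.76 over 14 arrays, where the points of a pig are paired. The IFNG log2 ratios of onion over Sd were 0.54, -0.21 and 0.79 in pigs 1, 2 and 4, and 0.96, 0.62, 1.84 and -0.88 in pigs 5 to 8. They had the sign of the class II mean ratio in 5 of 7 pigs and the opposite sign in pigs 2 and 6. IRF1, a transcription factor induced by interferon, had r 0.72 over Sd. IFNGR1 and IFNGR2, the receptor chains, had r of -0.21 and -0.23. None of the 7 interferon genes measured, of 8, was called in an onion comparison, and 2 of 7 differed between pigs, against 37.9% of all genes, the share to set beside each count between pigs that follows.

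Of the endosomal processing genes, 4 of 9 were measured. CTSB, CTSD and CTSH, cathepsins that cut proteins and CD74, and IFI30, a reductase that opens disulfide bonds of antigens, had r over Sd between -0.09 and 0.46 with the class II mean. None was called in an onion comparison and 1 differed between pigs. Among recognition and costimulation genes, 8 of 9 were on the array, 1 of them, CD40LG, at the floor throughout. Of the 7 tested, 0 were called by limma in an onion comparison and 4 differed between pigs. LAG3, an inhibitory receptor for class II, had a log2 ratio of 0.44 ± 0.18 in YOd/Sd (SE, limma, adjusted p = 0.387), and r 0.74 over Sd. CD40, which activates antigen-presenting cells, had r 0.78, and a log2 ratio of -0.99 in pig 6. CD86, a costimulatory ligand, had r 0.30.

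The class I genes serve CD8+ T cells. SLA-3, B2M and PSMB9 were saturated on all 14 arrays, so their differences are compressed and their r is not used. Of the other genes above the floor on every array, SLA-6 had r 0.72 with the class II mean over Sd, TAP1 and TAP2, the subunits of the peptide transporter, 0.57 and 0.39, SLA-8 0.42 and PSMB8, a subunit of the immunoproteasome, 0.28. Of 9 class I genes 2 differed between pigs and 0 were called in an onion comparison.

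Markers of the cells that could carry class II were measured beside them. The myeloid markers, 5 of 12 on the array (CD14, CD163, MRC1, XCR1 and AIF1), summed in Sd to 45.9 in pig 8, to 36.8 in pig 2 and to 30.3 in pig 5. Pigs 1, 4, 6 and 7 had sums from 17.0 to 19.7. That order has the same top 3 as the class II genes. The sums are carried by AIF1 and CD163, which made up 87.3% to 91.8% of them, and 2 dimmer members had other orders. The log2 level of CD14 in Sd was highest in pig 2 at 0.21, and XCR1 in pig 1 at -0.09, with pig 5 at -0.59 and -0.99. CD163, a scavenger receptor of macrophages, had r 0.93 over Sd with the class II mean, AIF1, a calcium-binding protein of macrophages, 0.89, and XCR1, a receptor of cross-presenting dendritic cells, 0.48. Markers of some other cells had r in the same range, 0.70 to 0.87 for the T cell markers and 0.58 to 0.83 for the endothelial ones. The smooth muscle markers disagreed, with r 0.84 for ACTA2 but 0.18 for CNN1 and -0.08 for DES. The T cell markers, 5 of 6 (CD3D, CD3E, CD3G, CD2 and CD247), summed to 20.3 in pig 5, 13.98 in pig 8 and 10.2 in pig 2, and the remaining pigs lay from 3.38 to 7.18. All 5 T cell markers, 3 of 5 myeloid and 3 of 3 endothelial markers differed between pigs, beside 37.9% of all genes. Of the 8 enterocyte markers 3 differed, but 7 were saturated, which compresses their differences, and the exception, CDH1, was among the 3. The part of cell numbers in the class II levels was not tested.

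Within pigs the marker sums moved with class II in some animals only. In pig 8 the myeloid sum was 45.9 in Sd and 35.4 in WOd and the T cell sum 13.98 and 10.3, and 8 of 9 class II genes were lower in WOd. In pig 4 the myeloid sum was 19.7 in Sd and 25.99 in YOd and the T cell sum 6.12 and 10.4, and 8 of 9 class II genes were higher in YOd. In pig 6 the myeloid sum was 17.0 and 16.6 and the T cell sum 3.88 and 3.17, and all 9 class II genes were lower in WOd. In pigs 1 and 7 both sums and the class II mean were higher in the onion segment. In pig 2 both sums were lower in YOd, 36.8 and 35.2 for myeloid and 10.2 and 9.77 for T cell markers, while 6 of 9 class II genes were higher. In pig 5 the T cell sum was 20.3 in Sd and 18.3 in WOd and the myeloid sum 30.3 in both, while all 9 class II genes were higher. The B cell markers, of which 3 of 8 were measured, summed to 3.47 in the Sd segment of pig 6 and to 0.14 in its WOd segment, and to at most 0.36 in every other segment. MS4A1, a surface protein of B cells, was at the floor in all pigs except pigs 2 and 6. In the Sd segment of pig 6, where the B cell markers were high, SLA-DOB had its highest level, -0.63, on the probe that stands for it, while its other 2 probes were highest in the Sd segment of pig 8. CD74 and SLA-DOA were 0.73 and 0.75 log2 units above the WOd segment. Without pig 6 the WOd/Sd log2 ratios of CD74, SLA-DOA and SLA-DOB were 0.13, 0.03 and 0.22. Of the 5 T cell markers 1, CD3D, was called higher when the onion effects were compared, YOd minus WOd, against 3.64% of all genes.

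**Figure D5:**
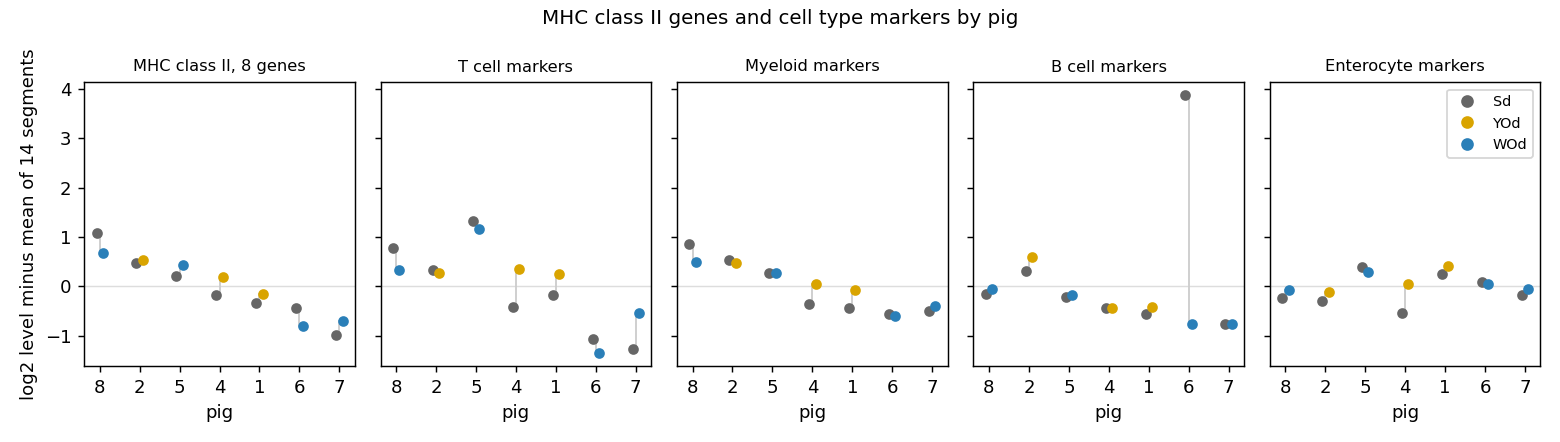
Centred mean log2 level of the 8 MHC class II genes without SLA-DOB, and log2 summed level of 4 marker lists, each minus its mean over the 14 segments (y axis), in the Sd (grey), YOd (yellow) and WOd (blue) segment of each pig (x axis, in the order of SLA-DRA). Class II and myeloid markers are highest in pigs 8, 2 and 5, and the B cell markers stand out in the Sd segment of pig 6 only, where their summed level is 3.47. Most enterocyte markers are saturated, so that panel is compressed.

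The genes whose pattern over the 14 arrays was most like that of the class II mean were ranked among 2174 other genes, of which 18 had Pearson's r over 0.9. The closest was TNFAIP8L2, a negative regulator of immune cell activation, with r 0.97. In the Sd segments it was at 0.56 in pig 8, then 0.01 (pig 2), -0.52 (pig 5) and -0.81 (pig 4), and at -1.27, -1.09 and -1.54 in pigs 1, 6 and 7. This is the order of the mean of all 9 class II genes, while in the mean of the 8 genes without SLA-DOB pigs 1 and 6 are exchanged. It was followed by IL10, an anti-inflammatory cytokine, at r 0.95. TGFB1, a cytokine, was at 0.94, STX11, a syntaxin of immune cells, at 0.93, and IL27, a cytokine of antigen-presenting cells, at 0.91. GGTA1P, AXL, a receptor of macrophages, the marker AIF1 and PIK3R5, a kinase subunit of leukocytes, were each at 0.91 as well, which makes 9 named of the 10. Over the onion over Sd ratios of the 7 pigs, which come from the same arrays, r was highest of the 10 for TGFB1, at 0.98. It lay from 0.52 (IL27) to 0.93 (STX11) for the others. The TGFB1 ratios were -0.49 in pig 6, -0.31 in pig 8 and from 0.13 to 0.49 elsewhere. IL10 had ratios of -0.68 and -0.41 in pigs 6 and 8 and of 0.82 in pig 7. All 10 genes passed the limma F test of the pig terms (adjusted p from 0.0027 to 0.020). Being picked for likeness to a mean that differs between pigs, they were likely to pass, so this is no further result. None of the 10 was called in YOd/Sd or WOd/Sd. The list is fixed by likeness over these arrays and is not evidence beyond it. When SLA-DOB was left out of the mean, 6 of the 10 remained.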

How the data were processed

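The authors deposited scanner files of 14 1-colour arrays with the processed intensity of each spot from Feature Extraction 10.7.3.1. They also deposited log2 values, used as an alternative only, for which the submitters' notes name RMA without settings. Here spots marked as outliers were left out (5 to 462 an array), the mean over the spots of each probe was taken relative to the array's 75th percentile, floored at the pooled 40th percentile (log2 -4.43), and log2 values were taken. An accession named 6686 probes, and a gene was represented by its brightest probe.

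Comparisons were fitted with limma 3.58.1 (R 4.3.3), blocking on the pig, since both segments come from 1 animal. After subtraction of group means these correlated with r from 0.52 to 0.75. Thresholds were a raw p of 0.05 with 1.5-fold, and an adjusted p of 0.05 between pigs. The number of arrays limits the precision. The fits were tested on simulated data. Summed marker levels are linear signals, relative to the 75th percentile.

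Genes named were all members, genes of lists (activators, interferon, processing, recognition, class I) on which a class II sentence turns or that passed a threshold, cell type markers, and the 10 genes most like the class II mean. Genes and lists were chosen with earlier results of these data known. Goblet and smooth muscle markers (1 of 4 and 3 of 5 measured) gave no call in an onion comparison, and of 3 plasma cell markers 0 were matched. The normexp alternative used the median spot intensity. Alternatives covered scaling, background, floor, filter, probe choice, deposited values, outlier spots, pig and slide block and each pig left out. Pig 3 was not analysed here, and values of some single genes of the lists are not reported here.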

Additional observations from a re-analysis of the deposited data

Results flagged for a closer look

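CD74 in pig 6 lay apart from the other pigs. Its log2 ratio of onion over Sd was -0.73, and the gap to the next pig was 0.667 of the range over 7 pigs, above the critical value of 0.568. Its second probe gave -0.87 in the same pig. The summed level of the B cell markers was 3.47 in the Sd segment of pig 6, with a gap of 0.953 of the range over the 7 Sd segments. The 2 results share that array. Over 43 groups examined 2 lay apart in this way, and chance gives about 1 in 20.

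Both missing class II values were SLA-DOB spots of pig 7 that the scanner software marked as not uniform. The spot of probe A_72_P440006 on the Sd array would have a log2 level of -0.48, against -4.43 to -2.97 on the other 13 arrays. The spot of probe A_72_P300459 on the WOd array would have 1.64, against -3.12 to -0.63 on the other 13, and would give an onion over Sd log2 ratio of 3.19. The third SLA-DOB probe, not marked, gave 0.40 in that pig.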

How the results depend on the processing

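The counts of class II genes called in the onion comparisons were 0 under every alternative, with 1 exception. Leaving out single pigs, the count for YOd effect minus WOd effect ranged from 0 to 1, the 1 being SLA-DOA without pig 5. The count of genes that differed between pigs was 8 or 9 under all alternatives, and 8 to 9 when single pigs were left out. Without the pairing of segments, that is with no replicate block, the counts of called genes were still 0 in all 4 onion comparisons. Keeping the outlier spots was chosen after seeing the data.

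Without scaling between arrays the median of all genes in YOd/Sd moved from 0.14 to -0.16, and that of the class II genes from 0.13 to -0.18, so a direction in YOd/Sd is relative to the scaling. The log2 ratios in YOd/Sd were then -0.22 for CD74, -0.21 for SLA-DQA1, -0.19 for SLA-DQB1, -0.18 for SLA-DMB, -0.072 for SLA-DRA, -0.055 for SLA-DRB1 and -0.017 for SLA-DMA. With quantile normalization SLA-DQB1 was at -0.015 and SLA-DQA1 at -0.022 in YOd/Sd. In WOd/Sd, SLA-DOB was at 0.69 with outlier spots kept and 0.71 with the deposited values, SLA-DRB1 at 0.0020 with the deposited values and SLA-DMB at 0.023 with the mean of its probes. Leaving out single pigs gave a range of -0.022 to 0.35 for SLA-DMB in YOd/Sd, the lowest without pig 4. In WOd/Sd it was -0.016 to 0.21 for SLA-DQB1, -0.20 to 0.16 for SLA-DRB1, -0.21 to 0.19 for SLA-DMB, -0.23 to 0.13 for CD74, -0.39 to 0.029 for SLA-DOA and -0.49 to 0.22 for SLA-DOB, with the highest values reached without pig 6 or pig 8. None of these ratios passed the thresholds, and the cause was not tested. Dim SLA-DOB probes limit that gene.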
